A study of Mus musculus with 38 samples.

Results

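Neurons answer synaptic input not only with electrical signals but also with transcription. Calcium entering through NMDA receptors and voltage-gated channels activates kinases that phosphorylate factors already bound to DNA, among them CREB and the SRF complex, and a first wave of genes is transcribed within minutes and falls again soon after the input ends. Their products are largely transcription factors, which switch on a later wave of genes that act at synapses, and the RNA of the first wave is widely used as a marker of recently active neurons.

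The 10 genes examined here, of 55298 genes in the count table, belong to this response and were chosen by name. Fos, Fosb and Junb encode subunits of the AP-1 transcription factor. Egr1, Npas4 and Nr4a1 encode a zinc finger factor, a basic helix-loop-helix factor made mainly in neurons, and an orphan nuclear receptor. Arc encodes a protein that moves to synapses and promotes the removal of AMPA receptors. These 7 genes are called the rapid genes below. Homer1 encodes a scaffold of the postsynaptic density whose short form is induced by activity, Bdnf encodes a secreted growth factor that acts through the receptor TrkB, and Vegfa encodes a secreted growth factor for blood vessels that is also induced by low oxygen.

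The study deleted Trim28, which encodes a corepressor recruited by zinc finger proteins to silence transposable elements, in the mouse brain. Neuronal nuclei were sorted from the forebrain of adult mice 2 months after AAV injection in 3 experiments. Cas9-GFP knock-in mice received guide RNAs against Trim28 (g3, g4, g13, or the 3 mixed, here called the mix, with 1 animal each) or against lacZ (1 animal), together with a nuclear RFP reporter driven by the neuronal Synapsin promoter. Stop-Cas9-GFP knock-in mice received the same set of guides (again 1 animal each, 5 in all) with a Synapsin-driven Cre that switches Cas9 on. Trim28-flox mice (floxed on 1 or both alleles per the methods) received Synapsin-driven Cre, with 4 animals labelled KO and 4 labelled control. In the fourth experiment the cortex of mice 3 months of age was taken whole from 3 Emx1-Cre(+/-) Trim28-fl(+/+) animals (KO, animals 60, 73 and 76) and 3 Emx1-Cre(+/-) Trim28-fl(+/-) animals (control, animals 64, 65 and 77). Emx1-Cre acts from early development in the lineage of cortical excitatory neurons and glia, and by these labels the controls carried Cre and 1 floxed allele too. Nuclei of 4 of these 6 animals (60 and 73, 64 and 65) were also profiled singly.

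The 24 adult bulk libraries held 8790346 to 25345083 reads in genes, counted per read mate. Trim28 itself checked the labels. In cortex it had 6.08, 8.53 and 8.88 CPM (read counts divided by the library size, which was scaled by TMM) in KO and 20.9, 19.0 and 21.4 in control animals. In the Trim28-flox experiment the 4 libraries labelled KO held 131 to 146 CPM of Trim28 and the 4 labelled control 25.7 to 31.6, which goes against the labels, so directions in that experiment are given for the libraries as labelled. Trim28 was 142 CPM in the Cas9-GFP lacZ animal and 92.9 to 104 in its 4 guide animals. In Stop-Cas9-GFP it was 107 against 89.6 to 128, a range that holds the control, so the RNA does not check the labels there. The paper assessed the deletion in both lines by sequencing the target sites and by staining for the protein. In the nuclei, where 3′ tags need not cover the deleted exons, excitatory Trim28 was 6.33 and 6.72 CPM of UMIs in KO and 8.55 and 6.996 in control, which checks nothing. Summed striatal projection neuron markers (Ppp1r1b, Drd1, Drd2 and 4 others) were 2737 to 4381 CPM in the sorted nuclei and excitatory markers (Slc17a7 and 5 others) 7.62 to 285. In cortex the excitatory markers summed to 779 to 869 CPM and the striatal markers to 86.3 to 116.

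The start regions of 5 rapid genes are shown because factors that answer activity act through short elements near gene starts, whose letters can be looked for there. They are the 250 bases before the RefSeq transcription start (GRCm38.p6), 5′ to 3′ on the gene's strand. Capitals mark TGACG on either strand (read as CGTCA on the other), the core bound by CREB, and GCGGGGGCG on either strand (CGCCCCCGC), the site of EGR factors. The Fos region is chr12:85473640-85473889 (+), Fosb chr7:19310046-19310295 (-), Junb chr8:84978749-84978998 (-), Npas4 chr19:4989972-4990221 (-) and Nr4a1 chr15:101266596-101266845 (+), the last at a start that lies within the gene's annotated span.
Fos: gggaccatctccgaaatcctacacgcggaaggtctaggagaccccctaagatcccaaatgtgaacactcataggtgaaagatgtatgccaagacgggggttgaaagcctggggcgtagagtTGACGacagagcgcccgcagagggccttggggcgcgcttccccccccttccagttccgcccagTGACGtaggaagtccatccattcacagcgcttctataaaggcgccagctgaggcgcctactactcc
Fosb: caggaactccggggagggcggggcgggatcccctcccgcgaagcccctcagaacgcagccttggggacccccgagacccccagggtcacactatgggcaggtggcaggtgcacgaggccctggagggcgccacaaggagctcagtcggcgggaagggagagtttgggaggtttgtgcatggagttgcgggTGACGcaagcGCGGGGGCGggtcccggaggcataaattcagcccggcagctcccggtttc
Junb: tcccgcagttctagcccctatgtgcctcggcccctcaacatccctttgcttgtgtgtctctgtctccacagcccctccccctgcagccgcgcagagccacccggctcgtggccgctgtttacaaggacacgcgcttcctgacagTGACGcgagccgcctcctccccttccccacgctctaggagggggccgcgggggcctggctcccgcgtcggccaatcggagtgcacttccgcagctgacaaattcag
Npas4: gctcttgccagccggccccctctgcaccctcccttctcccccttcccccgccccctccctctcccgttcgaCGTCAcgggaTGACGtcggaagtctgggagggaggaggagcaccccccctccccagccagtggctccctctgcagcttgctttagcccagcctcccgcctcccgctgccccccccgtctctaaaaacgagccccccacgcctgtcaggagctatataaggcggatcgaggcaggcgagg
Nr4a1: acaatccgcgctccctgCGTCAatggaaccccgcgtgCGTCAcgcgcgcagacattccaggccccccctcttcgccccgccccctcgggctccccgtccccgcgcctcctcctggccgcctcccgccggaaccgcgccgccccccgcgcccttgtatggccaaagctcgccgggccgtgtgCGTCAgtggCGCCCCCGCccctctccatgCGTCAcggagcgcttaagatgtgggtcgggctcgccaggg
TGACG occurred in 5 of these 5 regions and more than once in 3 of them, against 17.8% and 3.9% of 32851 promoters of the same length. GCGGGGGCG occurred in 2 of 5 (Fosb and Nr4a1) and in 2.57% of all. Neither the full palindrome TGACGTCA (which contains TGACG and reads the same on both strands, 1.55% of all promoters) nor, on either strand, the SRF site called the CArG box (1.47%) was found in these windows. Such matches describe the letters and were not tested for binding.

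The rapid genes spread widely between animals of 1 group. Fos (chr12:85473890-85477273, + strand) in the Trim28-flox libraries labelled control was 2.596, 29.9, 24.7 and 12.7 CPM in animals trim28fl_797, trim28fl_798, trim28fl_799 and trim28fl_822, and in those labelled KO it was 1.33, 25.6, 20.5 and 13.1 CPM in animals trim28fl_794, trim28fl_795, trim28fl_796 and trim28fl_823. Each group therefore held 1 animal with under 3 CPM, 2 with over 20 CPM and 1 in between. Arc (chr15:74669083-74672570, - strand) had the same order within the labelled control group, 22.7, 156, 81.5 and 66.5 CPM, and in the group labelled KO it was 16.8, 132, 120 and 79.5 CPM. Nr4a1 was 82.6, 530, 354 and 193 CPM in the libraries labelled control and 44.6, 289, 298 and 202 in those labelled KO, and Npas4 was 95.1, 313, 204 and 125 against 68.4, 234, 178 and 136. Egr1 was 55.2, 118, 70.7 and 107 CPM in the labelled controls and 35.5, 106, 103 and 131 in the labelled KO libraries. Animals trim28fl_797 and trim28fl_794 were thus low for these 3 transcription factor genes too, and the labelled groups overlapped. The highest library exceeded the lowest 19.2-fold for Fos in flox KO and 11.5-fold in flox control, and 7.87-fold and 6.86-fold for Arc. Vegfa, in the same libraries, spanned 1.29-fold and 1.34-fold.

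Within a group, the same library tended to be at the end of the range for all rapid genes. Animal trim28fl_794 was the lowest of 4 for 7 of 7 rapid genes and animal trim28fl_797 likewise, whereas those animals were lowest for 25.3% and 23.3% of all genes of the experiment. Animal trim28fl_798 was highest for 7 of 7 (23.9% of all genes). Genes of the same response outside the 10 lay with them in the Trim28-flox experiment. Of 24 other rapid activity genes measured (Egr2, Nr4a2, Dusp1, Btg2 and others), 18 were lowest in trim28fl_794 and 17 in trim28fl_797. In the Cas9-GFP line the mix animal was highest of the 4 guide animals for 7 of 7 rapid genes and for 18 of 26 other rapid genes (30.1% of all genes). In the Stop-Cas9-GFP line the g13 animal was lowest for 7 of 7 (25.3%), and the mix animal highest for 5 of 7 (25.7%). The other rapid genes did not follow in that line. Of 25 measured there, 8 were lowest in the g13 animal and 10 in the g3 animal, and 6 were highest in the mix animal.

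**Figure D1:**
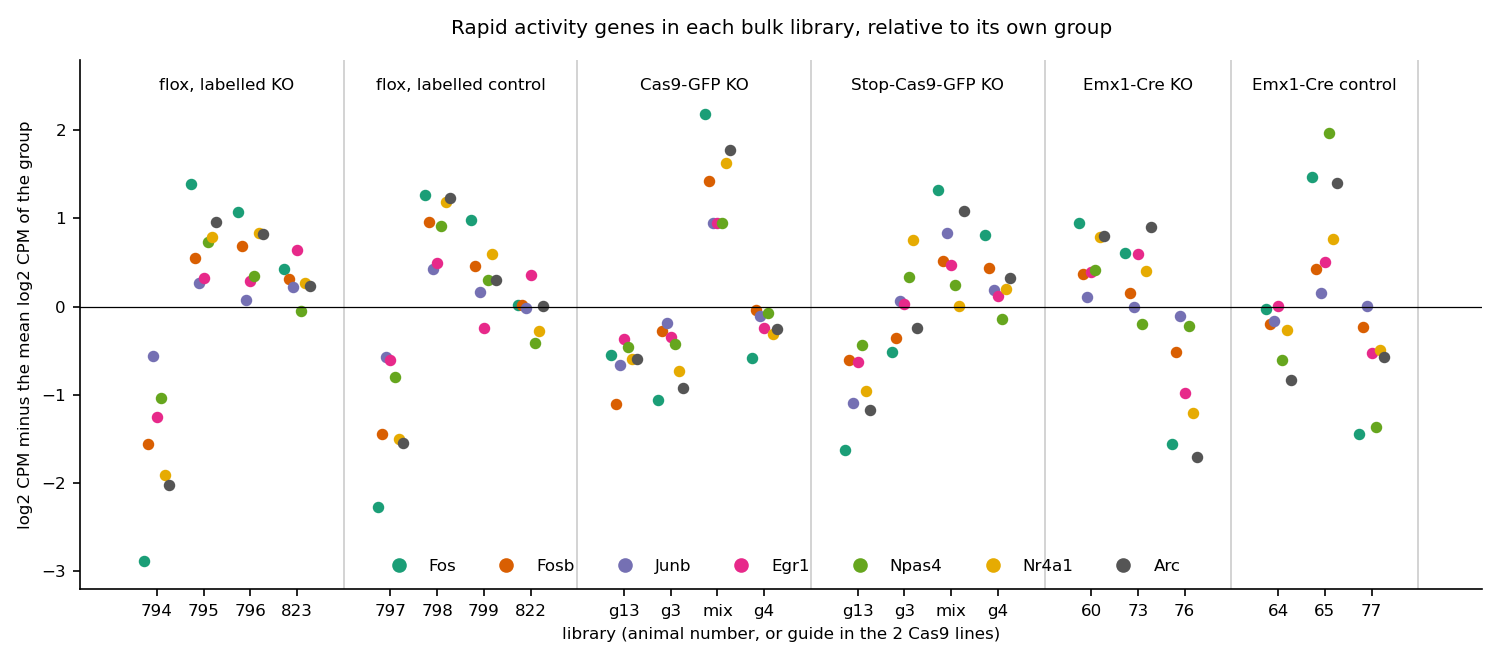
Level of each of the 7 rapid genes in each of the 22 adult bulk libraries of groups with more than 1 animal, as log2 CPM minus the mean log2 CPM of the library's group (vertical axis, log2 units), with libraries along the horizontal axis grouped by experiment and label. The genes of a library sit together: those of animals trim28fl_794, trim28fl_797 and 76 lie below their group mean and those of the Cas9-GFP mix animal and of animals trim28fl_798 and 65 above it.

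Over the 22 libraries of groups with more than 1 animal, each gene centred in its group, the 21 pairs of rapid genes correlated at a Pearson r between 0.596 and 0.957 (median 0.832). The libraries share preparation and depth within an experiment, so these values describe the set. Over these libraries Homer1, Bdnf and Vegfa did not go with the rapid genes: their r with the mean rapid profile was 0.002, -0.125 and 0.092. The Bdnf value is limited by low counts, as the sorted-nuclei libraries held 0 to 90 Bdnf reads each. In KO cortex animal 76 was lowest for Homer1 and Bdnf as for the rapid genes. In control cortex animal 65, highest for the rapid genes, was highest for neither. Among 12926 genes the median r was -0.015 and 475 exceeded 0.5. Of the other rapid genes 13 of 20 did so, led by Dusp1 (a MAP kinase phosphatase, 0.954), Arl4d (0.900), Btg2 (0.888) and Sik1 (a kinase that acts on CREB coactivators, 0.888), and of 23 later activity genes 10. The genes outside the lists most like the rapid profile were Midn (0.858), Tob2 (0.828), Jkamp (0.825), Snhg17 (0.817) and Dusp14 (0.797).

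The spread between animals, as edgeR's biological coefficient of variation in the Trim28-flox fit, was 71.9% for Fos, 56.6% for Arc and 55.4% for Nr4a1, where genes of like abundance had 22.2%, 15.4% and 15.1%. Vegfa was at 13.4%, under the 15.3% of its abundance. None of the rapid genes was called between the labelled groups (edgeR quasi-likelihood test, adjusted p under 0.05 and log2 change over 0.5). The log2 difference, labelled KO minus labelled control, was -0.20 for Fos (95% interval -1.83 to 1.44), 0.10 for Arc (-1.20 to 1.39), 0.10 for Egr1 (-0.66 to 0.87) and -0.48 for Nr4a1 (-1.75 to 0.80), so that differences of several fold in either direction lie within the intervals of Fos and Arc. Vegfa was the 1 called member of 10, where 0.0409% of 17102 genes were called and 4.74% were at an unadjusted p under 0.05, and no gene of the other activity lists was called.

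The Cas9 lines offered 1 control animal each. In the Cas9-GFP line Arc was 14.6 CPM in the lacZ animal and 17.8, 14.2, 92.6 and 22.6 CPM with g13, g3, the mix and g4. Nr4a1 was 51.5 CPM with lacZ and 44.3, 40.4, 206 and 53.9, and Fos was 1.17 CPM with lacZ and 1.35, 0.944, 8.97 and 1.32. The 3 single-guide animals thus lay near the control for these genes and the mix animal stood apart from all 4.
In the Stop-Cas9-GFP line Arc was 47.9 CPM with lacZ and 11.4, 21.6, 53.9 and 32.0 with g13, g3, the mix and g4, and Fos was 4.01 CPM with lacZ and 0.850, 1.84, 6.52 and 4.61. Here the control lay within the range of the guide animals, and the mix animal was again the highest for both genes. The mix held each vector at a lower dose than the single-guide injections, and with 1 animal per guide the guide and the animal cannot be told apart. No member was called in either line or with both lines in 1 fit (0% of 19004 and 18777 genes called in the single lines, 0.0054% of 18513 in both). At an unadjusted p under 0.05 there were 1 member and 1560 genes (8.21%) in Cas9-GFP, 1 member and 459 genes (2.44%) in Stop-Cas9-GFP, and 3 members and 1154 genes (6.23%) with both lines, and DESeq2 called 25 and 1 genes in the single lines, none of them members.

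In the cortex of the Emx1-Cre animals the rapid genes were higher on average in the KO, but the animals overlapped. Fos was 35.1, 27.6 and 6.18 CPM in KO animals 60, 73 and 76, and 6.64, 18.8 and 2.49 CPM in control animals 64, 65 and 77. Arc was 94.97, 102 and 16.8 CPM in KO and 10.3, 48.4 and 12.4 in control. Animal 76 was the lowest KO animal for 7 of 7 rapid genes and animal 65 the highest control for 7 of 7, against 36.4% and 30.6% of all genes, and animal 76 lay below animal 65 for every rapid gene.
Egr1 was 333, 384 and 129 CPM in KO and 140, 198 and 97.1 in control, and Nr4a1 was 78.7, 60.2 and 19.7 against 17.2, 35.2 and 14.7. Npas4 differed most in control animals, at 4.35, 25.8 and 2.58 CPM, and was 18.2, 11.8 and 11.7 in KO. Fosb was 8.64, 7.44 and 4.68 CPM in KO and 3.85, 5.93 and 3.78 in control. Junb was 13.7, 12.7 and 11.9 CPM in KO against 9.51, 11.9 and 10.7 in control.

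The log2 difference, KO minus control, was 1.63 for Arc (SE 0.604), 1.35 for Fos (SE 0.600), 1.27 for Nr4a1 (SE 0.404), 0.96 for Egr1 (SE 0.326) and 0.65 for Fosb (SE 0.235). Their unadjusted p lay between 0.00859 and 0.0434 and their adjusted p between 0.241 and 0.516 (edgeR quasi-likelihood test, Benjamini-Hochberg over 16271 genes). None of the 10 members was called, where 1.33% of genes were, and 6 of 10 were at an unadjusted p under 0.05, as were 9.15% of genes. Beside the members, 14 of 26 other rapid genes were at an unadjusted p under 0.05 with a median log2 difference of 0.51 (0.007 over all genes), and 1, the clock gene Per1, was called (0.81, adjusted p = 0.0333). Of the later activity genes none of 24 was called and 8 were under 0.05, with a median of 0.07. None was called of 18 genes upstream of the response (NMDA receptors, calcium channels, kinases and CREB), of 11 receptors and partners, of 7 heat shock genes or of 9 low-oxygen genes.

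The calls turned on single animals. Animals 76 and 65 are singled out because they lay at the ends of their groups for the rapid genes. Leaving out either one therefore had to widen the difference of these genes. Such fits describe the dependence on 1 animal and do not test the genotype. Without KO animal 76, which lay lowest, 6 members were called, where 2.06% of 16732 genes were: Arc at 2.09 (adjusted p = 0.00376), Fos at 1.80 (0.0188), Nr4a1 at 1.66 (0.00033), Egr1 at 1.31 (0.00028), Fosb at 0.85 (0.0225) and Bdnf at 0.61 (0.00079). Without control animal 65, which lay highest, Npas4 was called at 1.99 (0.00295) and Arc at 2.66 (0.0438), where 0.799% of 16648 genes were called. With both animals in the fit, Arc's coefficient of variation was 49.97% where genes of like abundance had 10.4%.

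**Figure D2:**
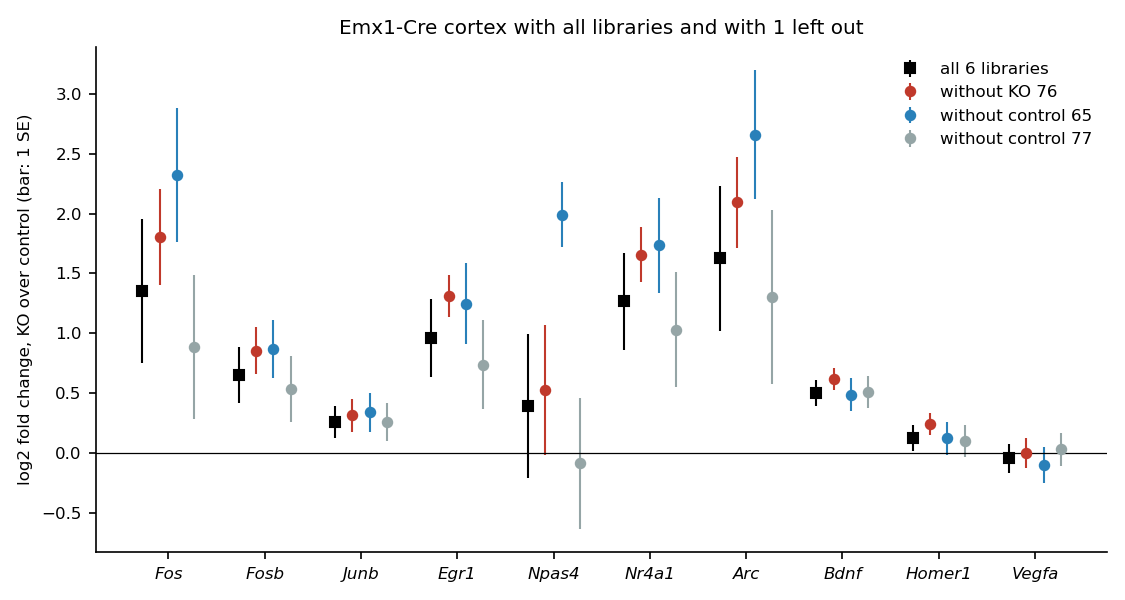
Log2 difference, KO minus control, of each member in Emx1-Cre cortex (vertical axis) in the fit of all 6 animals and in fits without KO animal 76, control animal 65 or control animal 77. Bars are 1 SE. The rapid genes shift upward when 76 or 65 is left out (Arc from 1.63 to 2.09 and 2.66), whereas Vegfa and Homer1 stay near 0.

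Bdnf (chr2:109674700-109727007, + strand) and Homer1 (chr13:93299635-93405129, + strand) had a small spread in cortex. Bdnf was 56.4, 53.5 and 42.3 CPM in KO cortex and 35.9, 35.4 and 36.5 CPM in control, so that the groups did not overlap (as for 13.9% of genes). The log2 difference was 0.50 (SE 0.110, adjusted p = 0.0472, edgeR), which passed the adjusted p but lay just under the fold threshold of 0.5. Its coefficient of variation was 10.2%, close to the 10.4% of its abundance. Homer1 was 456, 402 and 333 CPM in KO and 375, 364 and 354 in control (0.12, 95% interval -0.12 to 0.36). The short activity-induced form of Homer1 cannot be told from the long forms in counts per gene.
In Trim28-flox nuclei Bdnf rested on 4 to 90 reads per library, at 0.190 to 4.33 CPM, the highest being animal trim28fl_796 of the libraries labelled KO. In the Cas9 lines both lacZ libraries held 0 Bdnf reads, which allows up to 0.292 CPM and 0.344 CPM, as did the mix animal of Cas9-GFP and the g13 animal of Stop-Cas9-GFP, and the others held 7 to 40 reads. No fold is given for so few reads. Homer1 was highest in the lacZ animal of each line, 107 CPM against 64.6 to 99.0 in Cas9-GFP and 146 against 90.4 to 123 in Stop-Cas9-GFP (both lines together -0.41, SE 0.152, adjusted p = 0.720, edgeR).

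In bulk tissue fewer cells of a type and less RNA per cell cannot be told apart, so the nuclei of animals 60, 73, 64 and 65 were read by class. The files held 14296 barcodes, of which 13671 were kept, and the libraries shared 0 to 20 barcodes per pair. Clusters were formed without the members and the related lists among the variable genes. 6 clusters holding Slc17a7 with Neurod2, Neurod6 and Tbr1 were excitatory neuron-like (8177 nuclei, 1737 to 2344 per animal) and 3 holding Gad1 and Gad2 were inhibitory neuron-like (1730 nuclei, at least 367 per animal). Among its 10 leading genes no cluster held a marker of another class, but only clusters 2, 6 and 8 held any of their own. For the other clusters, among them all the excitatory ones, those 10 genes do not check the name. The excitatory clusters were shared unevenly. Cluster 4, led by Syt6 and Foxp2, held 164 and 77 nuclei of the KO animals and 270 and 274 of the controls, and 57 of the 78 nuclei of cluster 13 came from animal 73. Oligodendrocyte-like nuclei made up 6.46% and 4.54% of the KO animals' nuclei and 16.7% and 11.2% of the controls'. In tissue the 5 oligodendrocyte markers summed to 2097 to 2269 CPM in KO and 2610 to 2816 in control, and their part in the results was not tested.

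In excitatory nuclei 1 control animal held far less RNA of the rapid genes than the other 3 animals. With UMIs (unique molecular identifiers, 1 per captured RNA molecule) summed per animal and class and given as CPM of that sum, Arc was 80.7 and 93.5 CPM in KO animals 60 and 73, and 4.05 and 56.3 CPM in control animals 64 and 65. Fos was 20.0 and 22.2 in KO and 1.08 and 13.0 in control. Animal 64 was thus far below the other 3 for both genes, and animal 65 held 13.9 times as much Arc and 12.02 times as much Fos while carrying the same genotype.
Egr1 was 63.0 and 61.6 CPM in KO against 8.60 and 47.0 in control, and Junb 77.7 and 81.4 against 13.1 and 43.1. Nr4a1 was 43.0 and 45.4 against 8.78 and 47.0, Npas4 26.4 and 22.9 against 7.61 and 22.4, and Fosb 2.67 and 2.68 against 0.405 and 3.24. Animal 65 therefore lay at the level of the KO animals for Nr4a1, Npas4 and Fosb and below them for Fos, Junb, Egr1 and Arc.

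**Figure D3:**
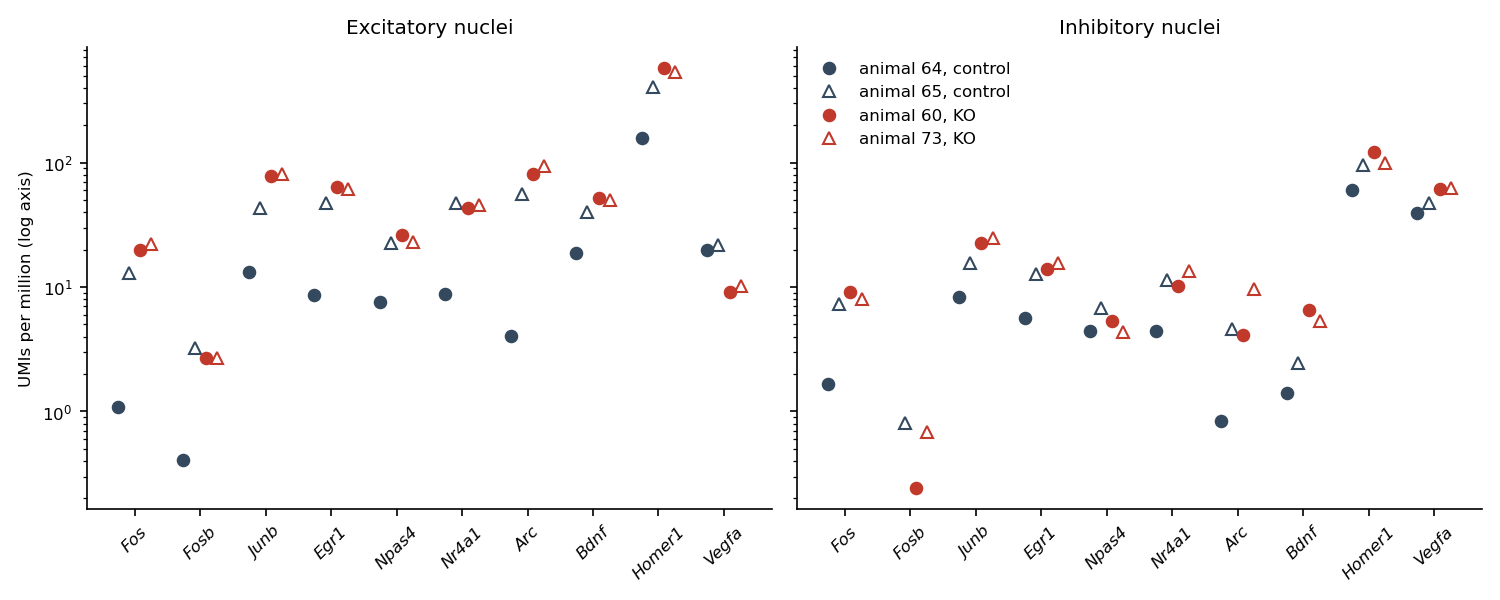
CPM of UMIs of the members in excitatory and inhibitory nuclei of each of the 4 animals (vertical axis, log scale), with 1 point per animal and KO and control animals in different colours. Inhibitory Fosb in animal 64 was at 0 and is not drawn. In excitatory nuclei animal 64 lies below the other 3 for the rapid genes, Homer1 and Bdnf, whereas Vegfa separates the KO animals from both controls.

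Of the 4 animals profiled both ways, 64 was lowest for 7 of 7 rapid genes both in cortex tissue and in excitatory nuclei, which are separate libraries of 1 animal. Among all 6 cortex animals it did not stand apart. Control animal 77 was the lowest control for 5 of 7 rapid genes (37.8% of all genes), and KO animal 76 lay below animal 64 for Fos and Egr1. In excitatory nuclei 22.2% of genes were lowest in animal 64, and the like share among these 4 animals in tissue was not counted. Across the 5 excitatory clusters that held nuclei of every animal in number (all but cluster 13), animal 64 was lowest in 5 of 5 for Fos, Junb, Egr1, Arc, Homer1 and Bdnf, in 4 for Npas4 and Nr4a1 and in 3 for Fosb. Only 13 of 16257 genes, 0.08%, exceeded 1 CPM of UMIs in animal 65 and were over 5 times higher there than in animal 64, a count chosen after the values were seen. These were Fos, Fosb, Egr1, Arc and Nr4a1 of the members, Egr2, Egr3, Nr4a2, Nr4a3, Dusp1, Sik1 and Ccn1 (listed as Cyr61) of the other rapid genes, and Pax5. In inhibitory nuclei 8 genes, 0.0626%, passed the same limits, among them Arc and the AP-1 gene Fosl2.

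The share of nuclei with these RNAs had animal 64 lowest too. With each nucleus thinned to 1500 UMIs, 2 or more of the 7 rapid genes had a UMI in 8.66% of excitatory nuclei of animal 60 (exact 95% interval 7.53% to 9.90%), 8.32% in 73 (7.23% to 9.51%), 6.69% in 65 (5.59% to 7.93%) and 0.346% in 64 (0.127% to 0.752%). Without thinning these were 56.5%, 57.9%, 43.8% and 8.87%, at median depths of 10398.5 to 11846 UMIs. Oligodendrocyte-like nuclei gave 0% to 0.441% and microglia-like nuclei 0% to 1.40%, so animal 64 lay within that background and the other 3 above it. The 0 of 550, 0 of 329 and 0 of 163 oligodendrocyte-like nuclei of animals 64, 65 and 73 allow shares of up to 0.545%, 0.912% and 1.84%, and the 0 of 121 microglia-like nuclei of animal 73 a share of up to 2.48%. The intervals cover counting error only.

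None of the rapid genes was called between the genotypes in excitatory nuclei. The log2 difference, KO minus control, was 1.52 for Fos (95% interval -0.29 to 3.33), 1.46 for Arc (-0.61 to 3.54), 1.44 for Junb (0.35 to 2.54, unadjusted p = 0.0171 and adjusted p = 0.101 by edgeR), 1.10 for Egr1 (-0.37 to 2.58) and 0.60 for Nr4a1 (-0.86 to 2.07). Both KO animals lay above both controls for Fos, Junb, Egr1, Npas4, Arc, Homer1 and Bdnf, as KO and control did not overlap for 60.2% of all genes. 1 member of 10 was called, Vegfa, where 6.45% of genes were, and Junb and Vegfa were at an unadjusted p under 0.05, as were 28.0% of genes. Among the listed genes, Ier5 (1.32, adjusted p = 0.00846) and Ier3 (0.94, 0.0448) of 25 other rapid genes and Vgf (0.89, 0.0139) and Nefm (0.83, 0.0279) of 24 later genes were called as higher, and Camk4, a calcium-dependent kinase upstream of CREB, as lower (-0.46, 0.0429).
Beside these, 2 of 7 heat shock genes (Hspa8, 0.79, and Dnajb1, 0.96) and 2 of 8 low-oxygen genes (Ldha, 0.73, and Slc2a1, 0.70) were called as higher in KO excitatory nuclei. Of the markers, the striatal Drd1 was lower (-2.04) and the oligodendrocyte Mbp higher (1.01). Their part in the members' values was not tested.

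Inhibitory nuclei, which Emx1-Cre spares by lineage, held less RNA of the rapid genes than excitatory nuclei of the same animal, apart from Fos in animal 64. Junb was 22.6 and 24.8 CPM in KO against 8.38 and 15.7 in control, Fos 9.14 and 8.05 against 1.68 and 7.32, and Egr1 14.0 and 15.6 against 5.58 and 12.7. Nr4a1 was 10.1 and 13.3 against 4.47 and 11.4, and Npas4 5.29 and 4.37 against 4.47 and 6.78. Animal 64 was again lowest for Fos, Junb, Egr1, Nr4a1 and Arc (20.9% of all genes). Thinned as above, 2 or more of the 7 rapid genes had a UMI in 0.857% and 0.406% of inhibitory nuclei in KO. In control the shares were 0% (0 of 386) and 0.829%. All lie within the 0% to 1.40% of oligodendrocyte-like and microglia-like nuclei, so they do not separate inhibitory expression from background. Egr1 lay below oligodendrocyte-like nuclei (19.2 and 18.4 CPM) in KO and above them in control. Junb and Fos lay above them in each animal. Arc was 4.09 and 9.66 against 0.838 and 4.61, and its thinned share of 0% (0 of 386 nuclei in animal 64, which allows up to 0.777%) to 1.22% of inhibitory nuclei lay at or below the 2.13% to 4.91% of oligodendrocyte-like nuclei, which reads as background.
None of the 9 members tested was called in inhibitory nuclei (0% of 12778 genes called, 14.2% at an unadjusted p under 0.05, and 18 genes and no member by DESeq2), and 4 were at an unadjusted p under 0.05. Without control animal 65, 7 members were called, among them Fos (2.34), Junb (1.51) and Arc (3.01, at levels read above as background), where 3.24% of 13549 genes were. Without control animal 64 no member was called, although 21.6% of 13422 genes were. The difference between the classes in the genotype effect of the rapid genes lay between 0.06 (Nr4a1) and 0.88 (Npas4) on the log2 scale. No rapid gene was called in that comparison, in which 1 member of 10 and 1.69% of 16082 genes were. Among the receptors and partners of the members, Ntrk2 (the BDNF receptor TrkB, 0.58, adjusted p = 0.0138, edgeR) was called there with a larger KO difference in excitatory nuclei.

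Homer1 and Bdnf were also lowest in animal 64 in the summed excitatory and inhibitory nuclei. Homer1 was 575 and 531 CPM in excitatory nuclei of KO animals and 157 and 406 in control animals 64 and 65 (log2 difference 0.92, 95% interval -0.0010 to 1.83), and 122 and 99.4 against 60.6 and 95.7 in inhibitory nuclei. In tissue the same animals 64 and 65 differed little in Homer1, 375 and 364 CPM. Bdnf was 51.8 and 50.4 against 18.8 and 40.1 in excitatory nuclei and 6.50 and 5.29 against 1.40 and 2.44 in inhibitory nuclei, and was 7.97 to 16.4 times higher in excitatory nuclei of an animal than in its inhibitory nuclei. In inhibitory nuclei the KO mean of Bdnf was 2.41 times animal 65, which was itself 1.75 times animal 64. Animal 64 was lowest in 1 of 3 inhibitory clusters. These inhibitory sums rest on 5 to 27 UMIs, at levels within or below the 2.25 to 16.1 CPM of oligodendrocyte-like nuclei. The folds therefore do not separate inhibitory Bdnf from background. In tissue Bdnf was 35.9 and 35.4 CPM in animals 64 and 65.

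Vegfa (chr17:46016993-46032369, - strand) was the member whose Trim28-flox libraries separated by label. In the Trim28-flox libraries labelled KO it was 132, 143, 111 and 125 CPM, and in those labelled control 64.2, 68.4, 81.2 and 60.6 CPM. The groups did not overlap, as for 3.37% of all genes, and the log2 difference was 0.90 (SE 0.120, adjusted p = 0.0342, edgeR). Because Trim28 went against the labels, the higher Vegfa was in the libraries with the higher Trim28. The difference lay between 0.84 and 0.99 when each library was left out, but the adjusted p rose above 0.05 (0.0533 to 0.170) in 6 of the 8 such fits, those without trim28fl_797, trim28fl_798, trim28fl_822, trim28fl_794, trim28fl_795 or trim28fl_823. Astrocyte markers summed to 25.7 to 78.6 CPM in libraries labelled KO and 26.2 to 59.8 in those labelled control, and oligodendrocyte progenitor markers to 36.8 to 90.6 and 60.6 to 91.5, while excitatory markers reached 285 and 106. Their part was not tested.
In the Cas9 lines the lacZ animal had the most Vegfa, 105 CPM against 72.0 to 100.3 in Cas9-GFP and 86.6 against 54.3 to 64.96 in Stop-Cas9-GFP. With both lines in 1 fit the log2 difference was -0.42 (SE 0.146, unadjusted p = 0.00872, adjusted p = 0.720, edgeR), which was not called. In Emx1-Cre cortex Vegfa was 17.6, 21.7 and 17.99 CPM in KO and 19.0, 18.3 and 21.9 in control, a log2 difference of -0.05 (95% interval -0.31 to 0.22).

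**Figure D4:**
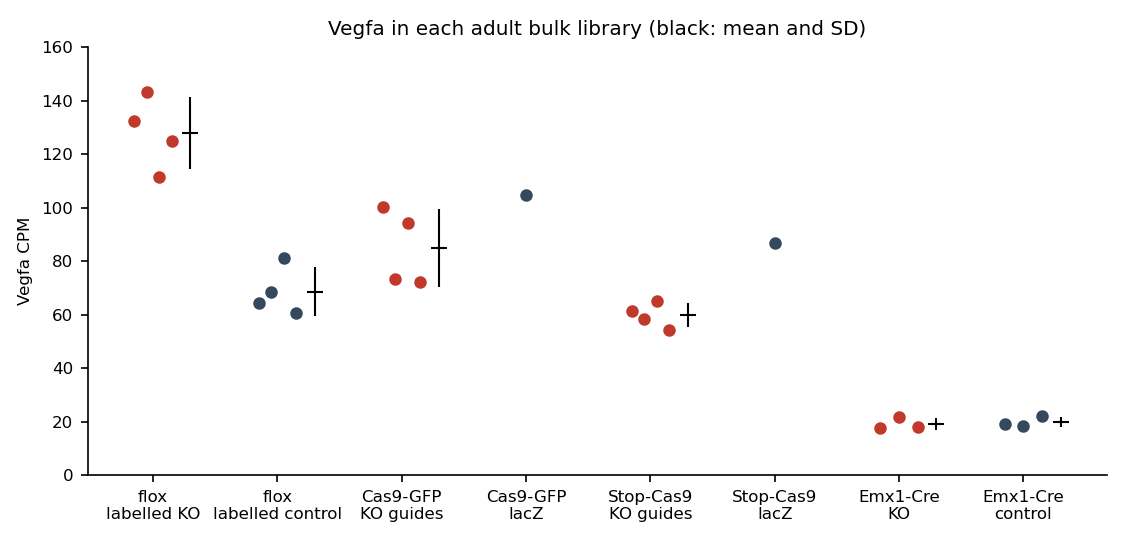
Vegfa level (CPM, vertical axis from 0) in each adult bulk library, grouped by experiment and label, with the mean and SD of groups of more than 1 animal. The Trim28-flox libraries labelled KO (111 to 143) lie above those labelled control (60.6 to 81.2), the lacZ animals lie above their guide animals, and the cortex groups overlap.

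In the nuclei the genotype difference of Vegfa depended on the class. In excitatory nuclei Vegfa was 9.12 and 10.2 CPM in KO animals 60 and 73 and 19.8 and 21.9 in control animals 64 and 65, a log2 difference of -1.16 (SE 0.142, adjusted p = 0.0141, edgeR). Animals 64 and 65, which differed 12.02-fold in Fos and 13.9-fold in Arc, differed 1.10-fold in Vegfa. Both KO animals lay below both controls in 5 of 5 excitatory clusters, which are parts of the same animals. In the summed excitatory nuclei KO and control did not overlap for 60.2% of all genes. The Vegfa sums rest on 239 to 500 UMIs. The fit of cluster 0 alone gave -1.24 and that of cluster 1 alone -1.01, both called, but the call was lost in each of the 4 fits that left out 1 animal and with no filter on low counts (adjusted p 0.0559 to 0.123). The fits without animal 64 or 65 called 0 genes in all by edgeR, with 6305 and 4654 at an unadjusted p under 0.05.
In inhibitory nuclei Vegfa was 61.6 and 62.1 in KO and 39.1 and 47.2 in control, with both KO animals above both controls in 3 of 3 clusters (0.51, SE 0.151, adjusted p = 0.220, edgeR). KO and control did not overlap for 47.0% of all genes in the summed inhibitory nuclei. The test of the difference between the classes gave -1.69 (SE 0.145, adjusted p = 0.00021), and this was called under every alternative run, at -1.57 to -1.72. The level in excitatory nuclei was low. A UMI of Vegfa was seen in 8.88% and 9.64% of excitatory nuclei of the KO animals and 20.2% and 21.8% of the controls, against 4.72% to 7.29% of oligodendrocyte-like nuclei and 0.595% to 3.49% of microglia-like nuclei, whose median depths were 1570 to 2444 UMIs. Thinned to 1500 UMIs the excitatory shares were 1.599%, 1.88%, 2.94% and 3.32% (animals 60, 73, 64 and 65), no higher than the 3.07% to 5.78% of oligodendrocyte-like nuclei at that depth, so the share at equal depth does not separate excitatory Vegfa from background.

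Among the named classes Vegfa was highest in astrocyte-like and oligodendrocyte progenitor-like nuclei, and in the latter the genotypes differed, a comparison added after the values were seen. Oligodendrocyte-like nuclei held 19.5 to 34.9 CPM and microglia-like nuclei 3.48 to 18.9, below the inhibitory nuclei. In oligodendrocyte progenitor-like nuclei (Pdgfra, Cspg4, Vcan and Olig2) it was 504 and 537 CPM in KO and 229 and 195 in control, from 74 to 211 UMIs in 90 to 126 nuclei per animal. The log2 difference was 1.26 (SE 0.180, adjusted p = 0.0027, edgeR), 1 of 2 members tested being called where 0.193% of 6739 genes were (8.5% at an unadjusted p under 0.05), and it held at 1.13 to 1.41 under every alternative run. At 1500 UMIs, 35.7% and 41.7% of the progenitor-like nuclei of KO animals held a Vegfa UMI (exact 95% intervals 26.9% to 45.1% and 32.7% to 51.0%), against 22.6% and 22.2% of the controls' (15.6% to 31.0% and 14.1% to 32.2%). Of 3 low-oxygen genes tested in this class, 1 was called, Adm (adrenomedullin, a vasodilator peptide, 2.28, adjusted p = 0.0364).
In astrocyte-like nuclei Vegfa was 454 and 402 in KO and 467 and 429 in control, a log2 difference of -0.07 (95% interval -0.37 to 0.23), and none of the 5 members tested was called (2.09% of 10297 genes). Whether progenitor-like and excitatory nuclei differ in the genotype effect was not tested.

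**Figure D5:**
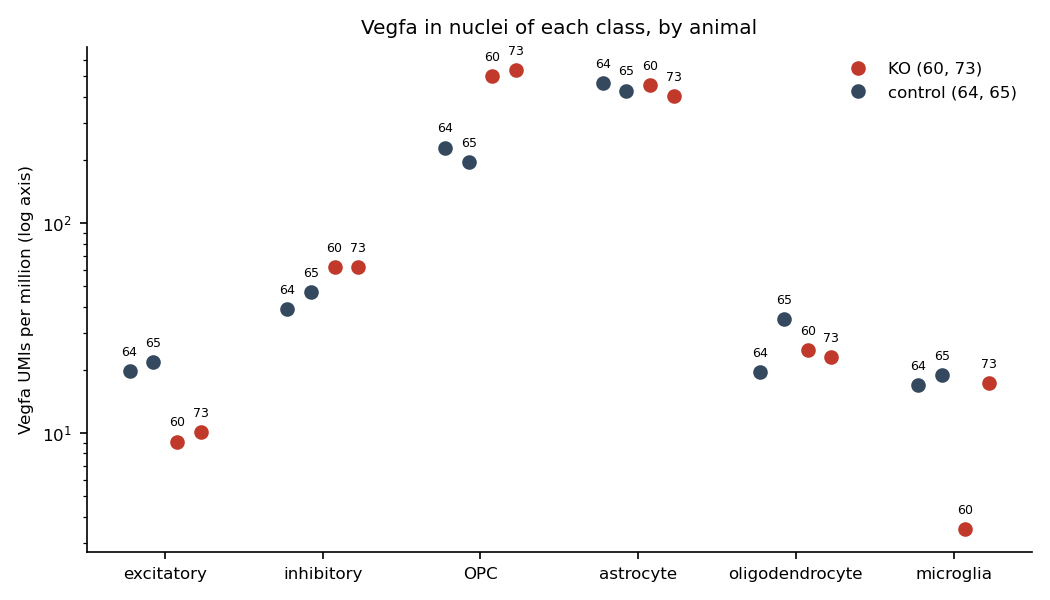
Vegfa in each class of nuclei and animal (CPM of UMIs, log scale on the vertical axis), with KO animals 60 and 73 and control animals 64 and 65 as points. KO lies below control in excitatory nuclei, above it in inhibitory and oligodendrocyte progenitor-like nuclei and level with it in astrocyte-like nuclei, and the microglia-like value of animal 60 rests on 1 UMI.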

How the data were processed

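RNA was sequenced from sorted neuronal nuclei and cortex tissue (TruSeq stranded, poly(A)), and single nuclei were profiled with 10x 3′ chemistry. The deposited gene counts were made by the authors with STAR 2.6.0 (unique reads) and Subread 1.6.3 featureCounts on GRCm38.p6, each mate counted once; 7 of the count columns are raw counts that the unit table lists as other. A second deposited table of TEtranscripts expected (estimated) counts, from multi-mapping reads, was rounded to whole numbers and used as an alternative. Deposited nuclei matrices are UMI counts from Cell Ranger 3.0. Chromatin data were not used here.

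Gene counts were fitted with edgeR 4.0.16 (R 4.3.3, filterByExpr, TMM, quasi-likelihood test, 2-sided), one fit per experiment over all genes with Benjamini-Hochberg adjustment. A gene was called at an adjusted p under 0.05 and, in bulk, an absolute log2 change over 0.5. The Cas9 lines pool the guides against 1 lacZ animal each, assumed to vary like the guide animals. Nuclei within 3 MADs of the median number of detected genes were kept, which left 13671 of the 14296 barcodes (the study gives the latter number as sequenced nuclei), and grouped by Seurat 5.3.0 at resolution 0.1 on 20 principal components of the 2000 most variable genes other than members and lists. No doublet caller was run. UMIs were summed per animal and class and fitted with edgeR, so animals are the replicates. P-values measure the spread between these animals. DESeq2 1.42.0, RLE factors, no filter, TEtranscripts counts and each library left out were the alternatives. Fits were tested on simulated data with 200 changed genes: 2-fold changes were recovered in 88% in cortex (16271 genes), 72% in Trim28-flox (17102 genes), 39% in Cas9-GFP (19004 genes), 21% in Stop-Cas9-GFP (18777 genes), 53% in both lines together (18513 genes), 78% in excitatory nuclei (16257 genes), 81% in inhibitory nuclei (12778 genes) and 63% for the difference between the classes (16082 genes), and 4.07% to 14.5% of the calls were false, the most in excitatory nuclei. The changed genes were drawn at random from those above a count floor, each with its own spread. Fos, Egr1, Npas4, Nr4a1 and Arc lay at percentile 99.85 or higher in cortex for spread relative to abundance. The recovery rates therefore do not apply to genes that spread as these do.

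The members and the gene lists were chosen with earlier results of these data known. The lists are other rapid genes (30), later genes (24), upstream genes (18), receptors and partners (12), heat shock (8), low oxygen (10) and cell type markers. All members are named in each experiment, and from each list the called genes, at most 5 per direction, apart from a few list and marker genes that are not reported here. Genes most like the rapid profile were ranked by Pearson r of log2 CPM (prior count 2) over 22 libraries. Promoter sequences are RefSeq's (GRCm38.p6), which held 8 of the 10 members.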

Additional observations from a re-analysis of the deposited data

Results flagged for a closer look

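Of 50 groups of 4 or 6 libraries in which a member was examined, 8 held 1 library far outside the others by Dixon's criterion, and chance alone flags about 1 in 20 groups. In the Cas9-GFP line the mix animal stood apart from the 3 single-guide animals for Arc (92.6 CPM), Egr1 (201 CPM), Fos (8.97 CPM) and Nr4a1 (206 CPM), which are 4 readings of 1 library. In the Trim28-flox libraries labelled control, animal trim28fl_822 stood apart for Bdnf at 1.02 CPM, which is 18 reads. In cultured neural progenitors, which the report does not compare, 1 g3 guide culture (npc_ko_g3_845) stood apart from the 5 other guide cultures for Fos (719 CPM), Fosb (421 CPM) and Nr4a1 (94.3 CPM), again 1 library.

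The genotype difference of Vegfa differed between excitatory and inhibitory nuclei by -1.69 on the log2 scale (SE 0.145, adjusted p = 0.00021, edgeR, over 4 animals). Vegfa was lower in both KO animals in excitatory and higher in both in inhibitory nuclei. KO and control did not overlap for 60.2% and 47.0% of all genes in these classes.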

How the results depend on the processing

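No paired analysis was possible because the guide numbers are shared by the guide animals of the Cas9 lines alone and each line has 1 lacZ control, and the labelled KO and control groups of the other experiments share no animal numbers. Leaving out 1 library at a time moved the number of members called most: 0 to 1 in Trim28-flox, 0 to 6 in Emx1-Cre cortex (6 without KO animal 76), 0 in excitatory nuclei, 0 to 7 in inhibitory nuclei (7 without control animal 65) and 1 to 3 for the difference between the classes. Without animals trim28fl_822 and trim28fl_823, which belong to another run of numbers, 0 members were called in Trim28-flox (Vegfa 0.85, adjusted p = 0.0617, edgeR), and with that run of numbers as a term 1 was (Vegfa 0.90, adjusted p = 0.00977), where 20 genes were called against 7. With no filter on low counts, 5 members were called in cortex, 1 in Cas9-GFP (Arc, 1.34), 0 in excitatory nuclei and 2 for the difference between classes. Unfiltered, 324 genes were called as higher and 222 as lower of 29959 in cortex. The counts were 88 and 43 of 27049 in Cas9-GFP, and 363 and 277 of 22682 for the difference between classes. RLE factors gave 1 in cortex (Bdnf, 0.50), where 143 genes were called as higher and 79 as lower of 16271. Excitatory cluster 1 alone gave 2 (Junb, 1.46, and Vegfa), and classes drawn by markers alone gave 2 for the difference between classes. Gene-wide, cluster 1 gave 574 higher and 536 lower of 14294, and classes by markers 164 and 196 of 15848. Of 839 member values under alternatives 51 had the other sign, 47 of them with a library left out. Junb in cortex was 0.94 (SE 0.430) with TEtranscripts counts against 0.26. Gene-wide counts of calls moved as well: in cortex 216 and 546 with no filter, in Trim28-flox 7 and 37 by DESeq2, in excitatory nuclei 1049 and 0 with no filter, and in inhibitory nuclei 0 and 2898 without animal 64, and the cause was not tested. The 1 control animal per Cas9 line and the 2 animals per genotype in nuclei limit what could be called. A fit of nuclei without 1 animal leaves a single animal in 1 genotype. Its calls therefore describe the dependence on that animal and do not test the genotype. For the difference between the classes, each such fit also called more genes as higher, over all genes, than the main fit.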

Other observations

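Neural progenitors in culture, made from Cas9-GFP knock-in mice and taken 10 days after transduction with guides, expressed several of these genes. Fos was 394 and 76.3 CPM in the 2 lacZ control cultures (npc_ctrl_842 and npc_ctrl_867) and 71.0 to 719 CPM in the 6 guide cultures. Fosb was 217 and 7.22 CPM in the controls and 8.63 to 421 CPM with guides. Egr1 was 570 and 225 CPM in the controls and 244 to 966 CPM with guides. Cultures of the same guide differed widely, as with g3, where Fosb was 421 CPM in culture npc_ko_g3_845 and 11.2 CPM in culture npc_ko_g3_870. Npas4, made mainly in neurons, was 0.161 to 0.647 CPM in all 8 cultures. Vegfa was 137 and 267 CPM in the controls and 51.5 to 166 CPM with guides, lowest in culture npc_ko_g3_845.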
